A study of Mus musculus with 48 samples.

Results

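Transforming growth factor beta (TGF-beta) signalling was followed in hippocampal microglia through 3 genes: its ligand Tgfb1, its type I receptor Tgfbr1 and its feedback inhibitor Pmepa1. They were chosen by name, as the rows of the deposited tables that bear these symbols, and all 3 were among the 478 genes of each table. The animals were 48 Balbc/Byj mouse pups of 17 days, in 3 rearing groups labelled UPS, LB and CTL, the control, with 16 pups per group and 8 per group and sex. As background, LB and UPS are mouse models of early-life stress, in which the dam has limited bedding and nesting material (LB) or that is combined with unpredictable changes (UPS). Microglia were purified on a Percoll gradient and by flow cytometry, and their lysate was counted on an nCounter mouse glial panel, where barcoded probes count RNA molecules without amplification. The libraries were run in 4 batches of 12, each with 2 pups of every group and sex. The 8 pups of a group and sex came from 4 to 5 litters, per the labels, so some were littermates.

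TGF-beta is secreted as a latent precursor and, once released, binds a type II receptor that recruits and phosphorylates TGFBR1. TGFBR1 then phosphorylates SMAD2 and SMAD3, which enter the nucleus with SMAD4 and change transcription. PMEPA1 is a transmembrane protein whose gene is induced by this pathway and which binds receptor-regulated SMADs and dampens the signal. In mice, microglia need TGF-beta for their mature, homeostatic state, and loss of the receptor from microglia shifts them toward an activated profile.

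The values are those of the authors' deposited tables of group comparisons, 1 for each of 3 pairs of groups, with the sexes pooled. Each row holds a log2 ratio, a linear fold change and a p-value, and a gene was called at a Benjamini-Hochberg adjusted p below 0.05, with the adjustment made across all 478 genes. The headers do not say which group is the numerator. The ratio of LB and UPS equalled the ratio of CTL and UPS minus that of CTL and LB to within 0.003 for every gene, so all 3 tables run the same way. A positive sign stands for more RNA in UPS than in CTL or LB, and in LB than in CTL, if UPS is the numerator of its tables. The opposite reading turns every sign below at once, those of the differences between genes included. The sizes stay, as does which genes differ in sign, while a group at one end of an order moves to the other end. Counts per library were not analysed here, so values per animal and the depth behind them are unknown. For the same reason the label of microglia could not be checked against marker levels, and less transcript per cell cannot be told apart from fewer cells that express the gene. Standard errors and 95% intervals were recovered from each deposited ratio and p with 42 residual degrees of freedom, which a single fit of the 48 libraries on rearing and batch would leave, and they treat littermates as independent.

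The receptor gene differed most firmly. In the authors' deposited table for UPS and LB, Tgfbr1 had a log2 ratio of 0.18, which is 1.13-fold, and its 95% interval ran from 0.12 to 0.24. Its adjusted p of 0.00018 there came from the 3rd smallest p of the 478 genes in the authors' deposited table, although the ratio ranked only 47th by size. Of all genes 6.28% were called in this comparison. UPS also stood apart from the controls, and the authors' deposited table gave a log2 ratio of 0.109, or 1.08-fold (interval 0.045 to 0.17, adjusted p = 0.0367). Here 4.81% of genes were called, and the Tgfbr1 call ended under the Benjamini-Yekutieli adjustment (adjusted p = 0.249). LB lay on the other side of CTL, at -0.0708 in the authors' deposited table, or 0.952-fold, with an interval from -0.13 to -0.0069. That ratio did not pass (p = 0.0306, adjusted p = 0.406), and no gene passed between LB and CTL, 0% of those tested, although 11.7% had an unadjusted p below 0.05. For Tgfbr1 the groups thus ran UPS, CTL, LB from one end to the other, with the neighbours LB and CTL not separated after adjustment.

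The inhibitor gene was called between UPS and CTL and in no other pair. Pmepa1 had a log2 ratio of 0.168 between UPS and CTL in the authors' deposited table, or 1.12-fold (interval 0.065 to 0.27), and an adjusted p of 0.0461 that just passed. With the 3 tables adjusted as 1 family this p was 0.0544. Between UPS and LB the authors' deposited table gave 0.14, or 1.1-fold (interval 0.037 to 0.24), short of a call (p = 0.00909, adjusted p = 0.0925). Between LB and CTL the authors' deposited table gave 0.0281 (interval -0.075 to 0.13, adjusted p = 0.857). The UPS ratios of Pmepa1 were of the size of those of Tgfbr1, but its standard error was larger.

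The ligand gene carried the opposite sign to both in each UPS comparison, and it was not called in any. The log2 ratio of Tgfb1 was -0.0465 between UPS and CTL in the authors' deposited table, or 0.968-fold (interval -0.099 to 0.0065, adjusted p = 0.375). It was -0.0759 between UPS and LB in the authors' deposited table, or 0.949-fold, with an interval from -0.13 to -0.023 (p = 0.00607, adjusted p = 0.0726). Between LB and CTL it was 0.0294 in the authors' deposited table, or 1.02-fold (interval -0.024 to 0.082, adjusted p = 0.698). UPS was therefore at one end of the order for all 3 genes, at the same end for receptor and inhibitor and at the other for the ligand.

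**Figure D1:**
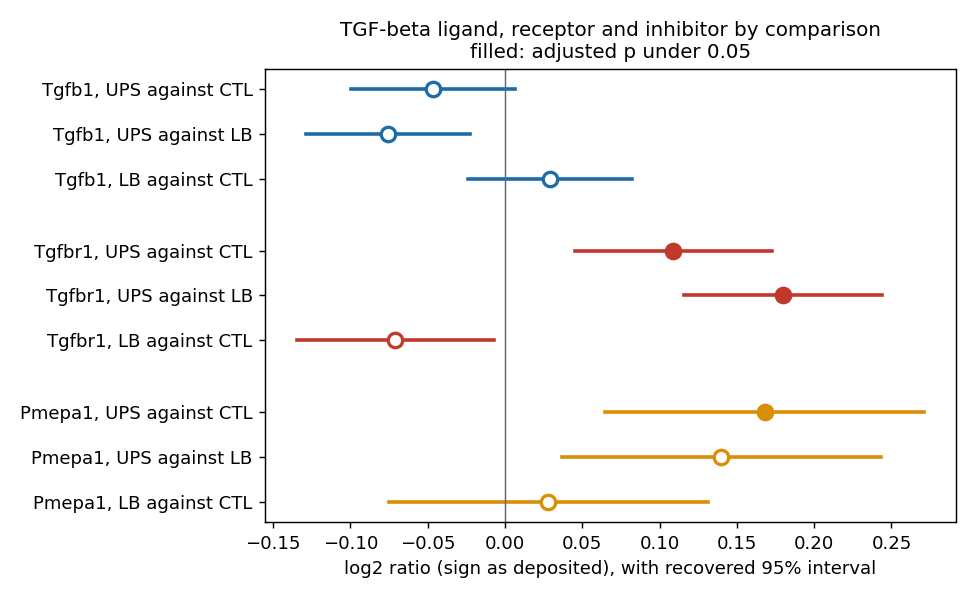
Log2 ratios of Tgfb1, Tgfbr1 and Pmepa1 (horizontal axis, sign as deposited) in each comparison (rows), with recovered 95% intervals as lines and filled points where the adjusted p was below 0.05. The 3 filled points are Tgfbr1 in both UPS comparisons, at 0.109 and 0.18, and Pmepa1 between UPS and CTL, at 0.168.

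Whether the ratio of one gene differed from that of another was asked by subtracting log2 ratios within a comparison. The covariance of the genes over animals is unknown, so the standard errors were summed, which gives the widest interval that any correlation allows. From the values of the authors' deposited tables, Tgfbr1 minus Tgfb1 was 0.26 between UPS and LB, with a widest 95% interval from 0.14 to 0.37. Between UPS and CTL this difference was 0.16 (widest interval 0.039 to 0.27). The receptor-to-ligand transcript ratio thus differed by 1.19-fold between UPS and LB and by 1.11-fold between UPS and CTL. Pmepa1 minus Tgfb1 was 0.22 between UPS and LB (0.060 to 0.37) and 0.21 between UPS and CTL (0.058 to 0.37). All 4 of these intervals excluded 0 and hold for either reading of the sign, turned together.

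Receptor and inhibitor were not separated from each other. Tgfbr1 minus Pmepa1 was -0.059 between UPS and CTL (widest interval -0.23 to 0.11) and 0.040 between UPS and LB (-0.13 to 0.21), and intervals this wide leave room for differences as large as the ratios themselves. Between LB and CTL the difference was -0.099 for Tgfbr1 minus Pmepa1 (-0.27 to 0.068) and -0.10 for Tgfbr1 minus Tgfb1 (-0.22 to 0.017). Pmepa1 minus Tgfb1 was -0.0013 there (-0.16 to 0.15). These 9 differences, 3 pairs of genes in 3 comparisons, are all that were computed, and their intervals were not adjusted for number.

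Precision differed among the 3 genes. The recovered standard error of a log2 ratio was 0.026 for Tgfb1, the 14th smallest of 478, 0.032 for Tgfbr1, the 51st, and 0.051 for Pmepa1, the 246th, beside a median of 0.050 over all genes. The ligand was thus the most precisely measured of the 3, and its lack of a call went with a small ratio. Between UPS and CTL the Tgfb1 interval ended at 0.933-fold and between UPS and LB at 0.915-fold, so lower ratios lay outside.

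**Figure D2:**
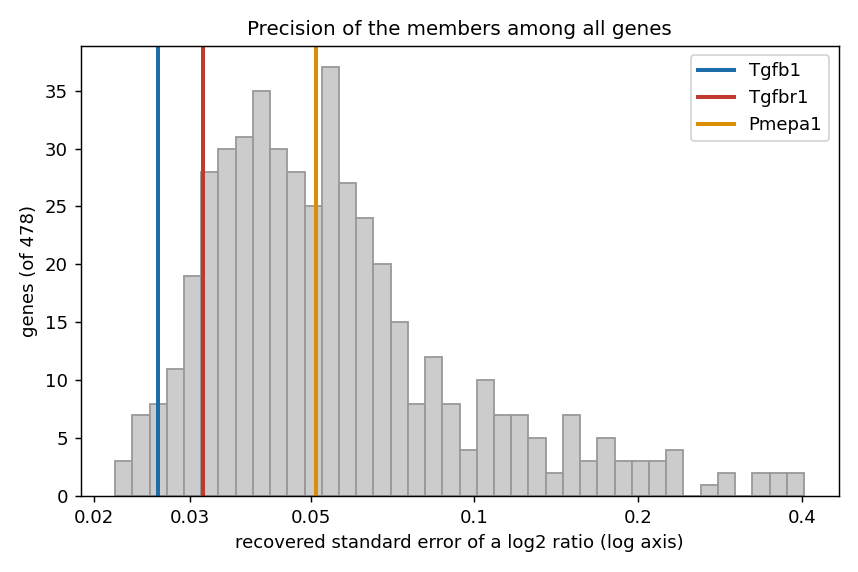
Histogram of the recovered standard error of a log2 ratio (horizontal log axis) over the 478 genes (vertical axis, number of genes), with Tgfb1, Tgfbr1 and Pmepa1 as coloured lines. Tgfb1 at 0.026 and Tgfbr1 at 0.032 lie at the precise end, and Pmepa1 at 0.051 lies near the middle.

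A pair of tests over the 3 groups at once was computed from the deposited ratios and the recovered standard errors. Both were chosen after the pairwise values had been seen. For any difference among UPS, LB and CTL, Tgfbr1 had an F of 16.4 on 2 and 42 degrees of freedom (adjusted p = 0.000634 over all genes), the 4th smallest p of the 478. Pmepa1 had an F of 6.20 (adjusted p = 0.0595) and Tgfb1 an F of 4.25 (adjusted p = 0.144), and neither passed, where 6.9% of genes did. For UPS against the mean of LB and CTL, the log2 ratio was 0.14 for Tgfbr1 (interval 0.089 to 0.20, adjusted p = 0.000302) and 0.15 for Pmepa1 (0.065 to 0.24, adjusted p = 0.0202). Both passed this test, as did 7.32% of all genes. Tgfb1 was at -0.061 (-0.11 to -0.015, adjusted p = 0.101) and did not.

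**Figure D3:**
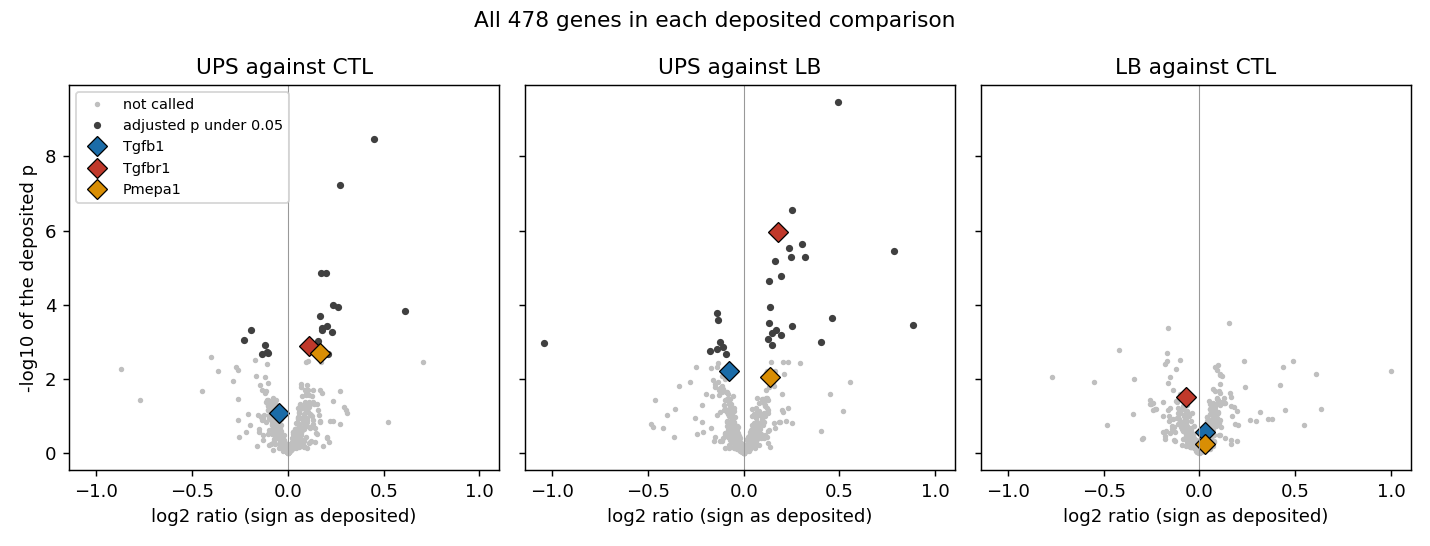
Each of the 478 genes by its deposited log2 ratio (horizontal axis, sign as deposited) and -log10 of its deposited p (vertical axis) in the 3 comparisons, with called genes dark and Tgfb1, Tgfbr1 and Pmepa1 as coloured diamonds. Tgfbr1 stands near the top between UPS and LB at a modest ratio of 0.18, and no gene is dark between LB and CTL.

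The promoter sequences of the receptor and the ligand are given because these genes, which encode partners of 1 signal, carried opposite signs. The windows run from upstream of the annotated gene start to just after it, 5′ to 3′ on the + strand of GRCm38.p6, from RefSeq. The Tgfbr1 window is chr4:47352972-47353271 and the Tgfb1 window chr7:25686752-25687051. Pmepa1 was not matched. Capitals mark the GC box core GGGCGG, which Sp1-family factors bind, on either strand.
Tgfbr1: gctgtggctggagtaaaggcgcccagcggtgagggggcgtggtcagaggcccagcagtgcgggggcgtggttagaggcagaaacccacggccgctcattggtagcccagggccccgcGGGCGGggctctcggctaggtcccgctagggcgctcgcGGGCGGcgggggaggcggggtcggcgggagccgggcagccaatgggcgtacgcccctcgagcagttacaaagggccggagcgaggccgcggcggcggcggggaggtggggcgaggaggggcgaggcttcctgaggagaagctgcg
Tgfb1: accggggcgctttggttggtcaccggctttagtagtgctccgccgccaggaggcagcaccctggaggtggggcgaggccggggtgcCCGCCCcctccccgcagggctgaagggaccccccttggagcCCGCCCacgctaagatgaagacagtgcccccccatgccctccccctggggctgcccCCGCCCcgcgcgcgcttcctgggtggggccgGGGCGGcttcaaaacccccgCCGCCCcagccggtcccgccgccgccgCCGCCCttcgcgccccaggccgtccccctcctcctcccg

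Both windows were rich in G and C, with 74.7% in Tgfbr1 and 77% in Tgfb1, against a median of 52.7% over 32851 windows of the same length. The Tgfbr1 window held 2 matches to GGGCGG, both on the + strand, and the Tgfb1 window held 6, of which 1 was on the + strand. Of all windows 35.7% held at least 1. Neither window held CAGAC, a short motif that SMAD3 and SMAD4 bind, on either strand (49.6% of all windows did). Other SMAD motifs were not searched. Neither held the TATA box TATAAA (13.6% of all windows) nor, on either strand, GAGGAAG, a string found within PU.1 sites (13.6%). Shorter cores of those sites were not searched. These are matches of letters only, and motifs outside these windows were not searched. The shares are over all windows and were not matched for G and C content.

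Few genes of the pathway list used here, which is not complete, were on the tables. Of 77 listed, 5 were measured and none was called in any comparison, beside 4.81% of all genes between UPS and CTL, 6.28% between UPS and LB and 0% between LB and CTL. With 5 genes these shares leave little room for a call. Smad3, the signal transducer that TGFBR1 phosphorylates, had log2 ratios in the authors' deposited tables of 0.0501 between UPS and CTL and 0.0642 between UPS and LB (adjusted p = 0.666 and 0.567). Cul1, the scaffold of SCF ubiquitin ligases, was given in the same 2 of the authors' deposited tables at -0.102 and -0.0862 (adjusted p = 0.294 and 0.327). The SCF RING subunit Rbx1 was at -0.0587 and -0.0662, and the authors' deposited tables gave adjusted p = 0.44 and 0.338. Skp1a, the SCF adaptor, was put at 0.0896 between LB and CTL by the authors' deposited table (adjusted p = 0.406). Ppp2ca, a phosphatase catalytic subunit, had ratios between -0.0095 and 0.024 over the authors' deposited tables.

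Genes of the microglial programme that in mouse studies depends on TGF-beta were better covered, with 24 of 27 listed symbols measured. Gpr56, among the symbols not found, is an older name of Adgrg1, which was measured. Between UPS and LB 3 of the 24 were called, 12.5% of the list beside 6.28% of all genes, all with a positive ratio. The authors' deposited table gave Tmem119, a microglial surface marker, a log2 ratio of 0.462 (interval 0.23 to 0.69, adjusted p = 0.0076). There Mertk, a receptor for apoptotic cells, was given at 0.253 (adjusted p = 6.67e-05) and C1qa, a complement subunit, at 0.132 (adjusted p = 0.00101), both from the authors' deposited table. These have the sign of Tgfbr1 and Pmepa1. Under the Benjamini-Yekutieli adjustment the Tmem119 call ended (adjusted p = 0.0514). The other 21 were not called, among them P2ry12 at -0.0731, Sall1, a transcription factor of microglial identity, at -0.0396 and Cx3cr1 at -0.000633 in the authors' deposited table. The median of the list was 0.032, against -0.010 over all genes.

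Between UPS and CTL 1 of these 24 genes was called, 4.17% beside 4.81% of all genes. It was Mertk, which the authors' deposited table gave at 0.272 (adjusted p = 1.37e-05). The transcription factor Mef2a, given at 0.0958 by the authors' deposited table, fell short (adjusted p = 0.0596). The list had 15 positive and 9 negative ratios and a median of 0.016, against 233 positive, 245 negative and -0.0025 over all genes. Between LB and CTL none of the 24 was called, and the smallest p belonged to Olfml3, a secreted microglial protein, which the authors' deposited table gave at -0.17 (adjusted p = 0.194).

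Of genes that TGF-beta is known to restrain in mouse microglia or macrophages, 13 of 24 were measured. Between UPS and LB 1 was called, 7.69% of the list beside 6.28% of all genes. It was the cytokine gene Il1b, and the authors' deposited table gave it a ratio of -1.04 (interval -1.64 to -0.44, adjusted p = 0.0207), opposite in sign to Tgfbr1. This call ended under the Benjamini-Yekutieli adjustment (adjusted p = 0.139). Of the 13 ratios 10 were negative there, with a median of -0.11, against 268 of 478 and -0.010 over all genes. None was called between UPS and CTL, where the authors' deposited table gave Il1b at -0.871 (adjusted p = 0.0797). There 8 of 13 ratios were positive with a median of 0.084, beside 233 of 478 and -0.0025 over all genes. None was called between LB and CTL, where the authors' deposited table gave the cytokine gene Tnf at 0.42 (adjusted p = 0.272). Here 7 of 13 were positive with a median of 0.16, beside 252 of 478 and 0.0035 over all genes. Apoe, a lipid carrier, was given by the authors' deposited tables at 0.125 between UPS and CTL and 0.129 between UPS and LB (adjusted p = 0.3 and 0.218). The list therefore held members of both signs in each comparison. Several of its genes were imprecise, beside a median standard error of 0.050 over all genes. The recovered standard error was 0.403 for Mx1, the highest of all genes, 0.336 for Ifit3 and 0.296 for Il1b, though 0.039 for Cd68. Whether the medians of this list differed from those of all genes was not tested.

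**Figure D4:**
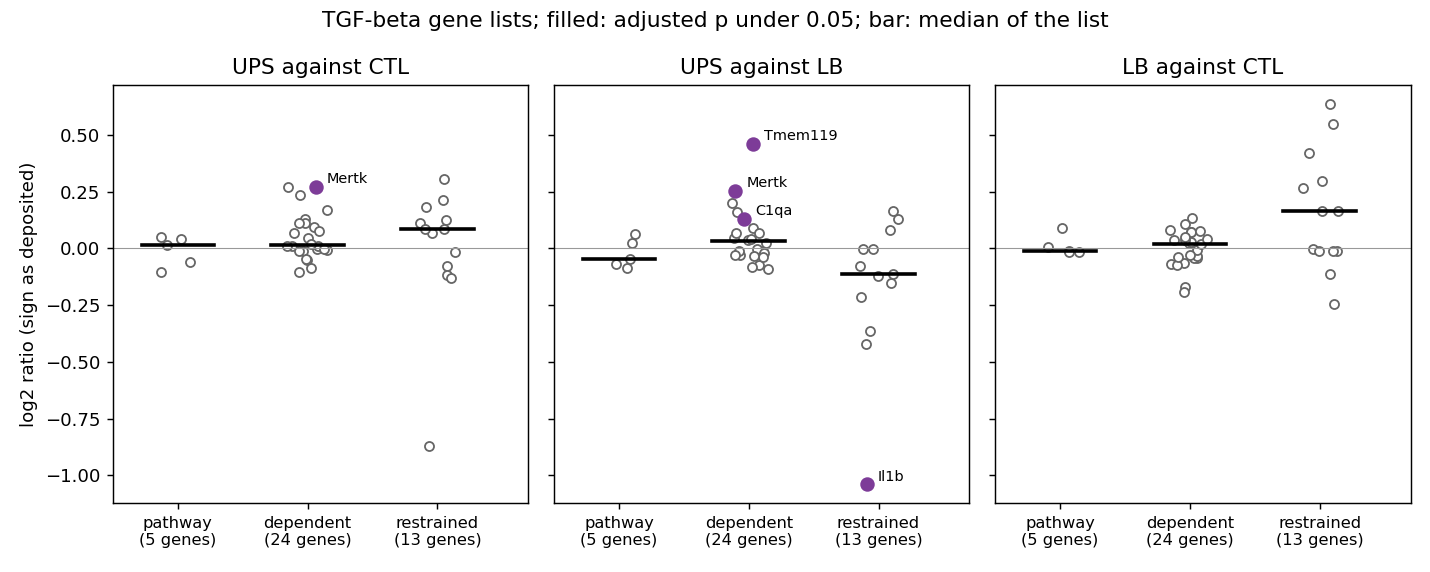
Deposited log2 ratios (vertical axis, sign as deposited) of measured TGF-beta pathway genes, genes dependent on TGF-beta and genes restrained by it, in each comparison, with the median of each list as a bar and called genes filled and named. Between UPS and LB, Tmem119, Mertk and C1qa are filled above 0 and Il1b is filled below, at -1.04.

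Markers of other cells were read beside these results. Of 34 listed, 11 were measured, and 2 of the 11 were called in each UPS comparison (18.2%, beside 4.81% of all genes against CTL and 6.28% against LB), with the sign of Tgfbr1 and Pmepa1. Stab1, a scavenger receptor listed here for border macrophages, was the only listed marker of these cells that was measured. The authors' deposited tables gave Stab1 at 0.205 between UPS and CTL and 0.195 between UPS and LB (adjusted p = 0.0197 and 0.0146). Which cells carried the Stab1 transcript is unknown. Slc1a3, an astrocyte glutamate transporter, was given by the authors' deposited tables at 0.21 and 0.25 (adjusted p = 0.0461 and 0.00995). Glul, the other astrocyte marker measured, was at 0.107 and 0.154 in the authors' deposited tables and not called (adjusted p = 0.363 and 0.117). Between UPS and CTL, however, 6 of the 11 ratios were negative, from -0.77 to 0.27 with a median of -0.047 (245 of 478 over all genes). There the authors' deposited table put Cd34, a vascular and stem cell sialomucin, at -0.4 (p = 0.00257, adjusted p = 0.0511). Between UPS and LB 9 of the 11 were positive, from -0.47 to 0.45 with a median of 0.068, beside 210 of 478 genes. Between LB and CTL 10 of the 11 were negative with a median of -0.068 and none called, beside 226 of 478 genes negative. The summed level of these markers per group is unknown. Their part in the Tgfbr1 and Pmepa1 ratios was not tested. All 9 listed microglia markers were measured, and of these Tmem119 was called, between UPS and LB.

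Genes with the most similar pattern were found by the Euclidean distance between their log2 ratios in the 3 comparisons, which stand for 3 groups only. For Pmepa1 the nearest were Stambpl1 (distance 0.010), Ltc4s (0.013), Tlr4 (0.017), P2ry6 (0.017) and E2f3 (0.024). Of these, Stambpl1 was called between UPS and CTL, and Tlr4 and E2f3 in both UPS comparisons. Over all genes 4.81% were called between UPS and CTL and 6.28% between UPS and LB. The neighbours were picked for ratios like those of Pmepa1, larger than the median sizes of 0.051 and 0.054 over all genes, which favours calls. For Tgfbr1 the nearest were Adgrg1 (0.031), Glul (0.035), Trim35 (0.037), Hsp90ab1 (0.038) and Slc25a12 (0.052), none of which was called in any comparison. Adgrg1 is on the list of genes dependent on TGF-beta, as is Ltc4s, and Glul is on that of astrocyte markers. For Tgfb1 the nearest were Ubqln2 (0.0067), Ppm1a (0.0081), Hadh (0.0098), Sod1 (0.013) and Ube2g1 (0.017), and none was called. Apart from those of Hsp90ab1, Trim35, Glul and Slc25a12, each distance was below the standard error of the member, so the order among the nearest is not resolved. Seen from Tgfbr1, Pmepa1 ranked 42nd in nearness and Tgfb1 367th.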

How the data were processed

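Per the series text, the authors counted glial panel transcripts in 48 libraries and compared pairs of rearing groups in the nSolver advanced analysis with batch as a covariate. How counts were normalized is not given in the sources used here. Per the file headers, each of 478 genes has in the deposited tables a fold change on the log2 scale, the same as a linear ratio, its p-value, and that p-value after Benjamini-Hochberg adjustment. No model was refitted. The p-values were adjusted over all 478 genes with SciPy 1.17.1 (Python 3.11.15). Calls at 0.05 were identical with the adjusted p-values that the authors deposited, which are the ones printed for pairwise comparisons. Standard errors came from the ratio and p of the comparison with the largest ratio of a gene. With 42 residual degrees of freedom they differed by a median of 0.291% between the comparisons of a gene. With 27, for fits of 2 groups and batch, they differed by 1.35%, and with 30, for 2 groups alone, by 1.02%. For all libraries, 45 (rearing alone) gave 0.339% and 41 (rearing, batch and sex) gave 0.320%. Values this near to that of 42 do not show which covariates were in the fit. The recovery was tested on simulated data.

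The members and gene lists were chosen with earlier results of these data known. Named genes were the members, list genes past the threshold or with the smallest p, and the 5 nearest in pattern per member. Sall1, P2ry12 and Cx3cr1 between UPS and LB, and some values of Smad3 and Ppp2ca, are named beyond this rule, after their values were seen. Lists were described by counts, with no set test. Promoters came from RefSeq tables of GRCm38.p6.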

Additional observations from a re-analysis of the deposited data

How the results depend on the processing

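Among the calls of the 3 members, that of Tgfbr1 between UPS and LB was kept under all 5 alternatives tried, and the others were not. Under the Benjamini-Yekutieli adjustment, which allows any dependence between genes, the adjusted p between UPS and CTL was 0.249 for Tgfbr1 and 0.311 for Pmepa1, and under Holm's it was 0.605 and 0.939. With the 3 tables adjusted as 1 family of 1434 p-values, Pmepa1 between UPS and CTL had 0.0544. After centring with a normal distribution, Pmepa1 between UPS and LB passed, at 0.0413. At a threshold of 0.1, 2 genes dependent on TGF-beta and 1 gene restrained by it were called between UPS and CTL, where 7.11% of all genes passed. Between UPS and LB that threshold was also passed by Tgfb1 (adjusted p = 0.0726) and Pmepa1 (adjusted p = 0.0925), as it was by 10% of all genes. Under Benjamini-Yekutieli 0 restrained genes were called between UPS and LB, since Il1b was lost, and 2 dependent genes, since Tmem119 was lost. The Benjamini-Yekutieli count over all genes was 4 between UPS and CTL, against 23 as deposited, and 13 between UPS and LB, against 30. The corresponding Holm counts were 5 and 11. Between LB and CTL 3 genes passed with the tables as 1 family and 2 after centring with a normal distribution. The tests over 3 groups stayed on the same side of the threshold with 45 or 27 residual degrees of freedom, settings chosen after the data were seen. The largest p among the called genes of a comparison was also held fixed as the limit. By that limit a standard error 1.01 times as large would end the Pmepa1 call between UPS and CTL. One 1.06 times as large would end the Tgfbr1 call there, and the Tgfbr1 call between UPS and LB would end at 1.74 times. The resemblance of littermates was not tested. No paired analysis was possible because the tables hold comparisons and no values per library, and for the same reason no animal was left out in turn.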
